A study of Mus musculus with 4 samples.

Results

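The IL-1 family transcripts described here are 10 genes for ligands, receptors and antagonists. They were taken from the count table by the symbol to which each Ensembl gene ID maps. They are Il1a, Il1b, Il18, Il33, Il1rn, Il18bp, Il1r2, Il1r1, Il1rap and Il1rl1. All 10 of the 49315 genes in the table were found, and all 10 were among the 14656 genes that passed the filter on low counts. Poly(A) RNA was sequenced from mouse bone marrow-derived macrophages, which are grown out of marrow progenitors, here in medium with L-cell supernatant. The marrow came from Lyz2Cre+ mice, in which Cre recombinase is inserted at the Lyz2 locus to act in myeloid cells; no floxed allele, age or sex is named in the labels, and both groups share this background. From day 7 the cells were held for 24 hours in serum-free medium with LPS at 100 ng/ml and interferon gamma at 50 ng/ml (M1, n = 2 libraries) or with IL-4 and IL-13 at 10 ng/ml each (M2, n = 2 libraries). Erlotinib, an EGF receptor inhibitor, also belongs to the series, and for these 4 libraries its presence or absence is not stated. Unpolarized cells are not among the libraries analysed here, so a gene higher in M1 can as well be called lower in M2.

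IL-1 alpha and IL-1 beta both signal through IL1R1, which recruits the accessory chain IL1RAP and the adaptor MyD88 to activate NF-kappaB. The pathway is held in check by a secreted antagonist that occupies IL1R1 (Il1rn), by a decoy receptor without a signalling domain (Il1r2) and, for IL-18, by a soluble binding protein (Il18bp). IL-1 beta and IL-18 are made as precursors that caspase-1 cleaves in inflammasomes, so transcript levels do not give the amount of active cytokine. IL-33 is a nuclear alarmin whose receptor ST2, encoded by Il1rl1, also pairs with IL1RAP.

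The promoter windows of 4 transcripts that stand for the patterns below are shown, from 250 bases before to 50 bases after a RefSeq start site (build GRCm38.p6). Il1a and Il1b are the ligands with the largest changes, Il1rn is the antagonist measured beside them, and Il1rl1 is the receptor among the 10 genes with the largest difference in the other direction. The Il1a window is chr2:129309923-129310222 on the minus strand and that of Il1b is chr2:129371090-129371389 on the minus strand. The Il1rn window is chr2:24345121-24345420 on the plus strand, the most downstream of 3 listed starts, and that of Il1rl1 is chr1:40429320-40429619 on the plus strand, the upstream one of 2. Which start was used in these cells was not measured. Capitals mark the letters that were searched for.
Il1a: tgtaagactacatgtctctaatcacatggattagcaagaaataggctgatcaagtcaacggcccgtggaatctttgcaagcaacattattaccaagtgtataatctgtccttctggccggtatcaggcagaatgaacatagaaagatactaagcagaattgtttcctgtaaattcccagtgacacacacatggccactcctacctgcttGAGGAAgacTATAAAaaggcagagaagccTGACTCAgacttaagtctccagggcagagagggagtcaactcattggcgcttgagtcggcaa
Il1b: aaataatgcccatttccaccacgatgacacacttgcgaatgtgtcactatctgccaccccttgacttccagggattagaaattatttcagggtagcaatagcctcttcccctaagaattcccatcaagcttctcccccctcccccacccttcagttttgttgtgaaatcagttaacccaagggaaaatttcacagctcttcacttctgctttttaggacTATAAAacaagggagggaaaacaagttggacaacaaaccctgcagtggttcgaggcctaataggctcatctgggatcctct
Il1rn: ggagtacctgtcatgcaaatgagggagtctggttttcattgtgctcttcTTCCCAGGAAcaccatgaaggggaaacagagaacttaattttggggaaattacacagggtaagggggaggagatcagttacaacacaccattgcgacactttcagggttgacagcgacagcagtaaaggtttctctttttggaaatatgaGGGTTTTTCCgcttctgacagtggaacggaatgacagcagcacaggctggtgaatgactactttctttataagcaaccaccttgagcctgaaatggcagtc
Il1rl1: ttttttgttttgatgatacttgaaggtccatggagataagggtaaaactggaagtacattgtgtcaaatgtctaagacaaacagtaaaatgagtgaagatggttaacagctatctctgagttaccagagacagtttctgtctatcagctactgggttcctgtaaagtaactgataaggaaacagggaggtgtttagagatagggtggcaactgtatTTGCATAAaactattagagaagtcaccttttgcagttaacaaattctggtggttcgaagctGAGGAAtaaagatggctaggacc

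In Il1a the capitals are, from left to right, a PU.1 core, spelled GAGGAA, then a TATA box whose first base lies 32 bases before the start, spelled TATAAA, and last an AP-1 match, in which any base may stand in the middle, spelled TGANTCA. In Il1b they are a TATA box at 31 bases before the start and nothing else. In Il1rn they are a STAT6-type repeat (TTC and GAA with any 4 bases between) and an NF-kappaB match (GGG and CC with any 5 bases between), and in Il1rl1 a C/EBP match (TTGCNNAA) and a PU.1 core. The letters found differ by start. The other Il1rl1 window held none of them, and the most upstream Il1rn window held AP-1 and NF-kappaB matches but no STAT6-type repeat. A TATA box with its first base 40 to 20 bases before the start, on the sense strand, was present in 1.99% of all 32851 RefSeq windows and in 3 of the 10 genes (Il1a, Il1b and 1 of the 2 starts of Il33). The TATA search was added after the sequences had been seen.

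The other motifs were searched on both strands and may overlap each other. NF-kappaB letters were in 3 of 10 genes and in 50.8% of all windows, STAT6 letters in 3 genes and 6.95% of windows, and AP-1 letters in 2 genes and 7.81% of windows. C/EBP letters were in 4 genes and 10.8% of windows, and PU.1 letters in 3 genes and 28.3% of windows. The interferon-stimulated response letters (GAAA repeated after any 2 bases) were in 1 gene, Il1rap, and in 3.44% of windows, and the GAS letters (TTCNNNGAA) in 1 gene, Il1r2, and in 8.30% of windows. These counts describe letters near a start site and not binding; genes with several starts had more windows in which to hold a match.

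The 4 libraries held 26806370 to 39506242 counts, and the scaling factors differed between groups, at 0.846 and 0.866 in M1 and 1.17 and 1.17 in M2. All 8 macrophage markers had counts in every library, and 6 were called higher and 2 lower in M1. Adgre1, which encodes F4/80, was at 3055 and 3123 CPM in M1 and 1365 and 1292 CPM in M2 (CPM is a gene's count per unit of library size, scaled by TMM). Csf1r, the receptor for the macrophage growth factor CSF1, and Cd68 were the 2 lower ones, Csf1r at 254 and 274 CPM in M1 and 1673 and 1607 CPM in M2 and Cd68 at 129.8 and 107 CPM in M1 and 1225 and 1261 CPM in M2. Lyz2 itself, the locus that carries Cre, was at 25.3 and 27.3 CPM in M1 and 6.51 and 6.88 CPM in M2. Whether the libraries of a group are from separate mice or cultures is not stated, and the p-values below measure the spread among these libraries only, which may be technical.

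The comparison of M1 with M2 sets one polarizing stimulus against the other. The ligands Il1a, Il1b, Il18 and Il33, the antagonists Il1rn and Il18bp and the decoy receptor Il1r2 were higher in M1, and the signalling receptor Il1r1, its partner Il1rap and the IL-33 receptor Il1rl1 were lower in M1. By edgeR's quasi-likelihood test all 10 genes passed an adjusted p of 0.05, of which 7 were higher and 3 were lower in M1. Calls were common in this comparison: 77.2% of the 14656 tested genes were called, 37.5% as higher and 39.7% as lower in M1. The libraries of the groups did not overlap for any of the 10, nor for 88.5% of all tested genes. The median absolute log2 fold change (M1 over M2) was 5.74 over the 10 genes and 0.757 over all genes tested. Because RNA was taken from whole cultures, fewer cells of a type and less RNA per cell cannot be told apart.

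**Figure D1:**
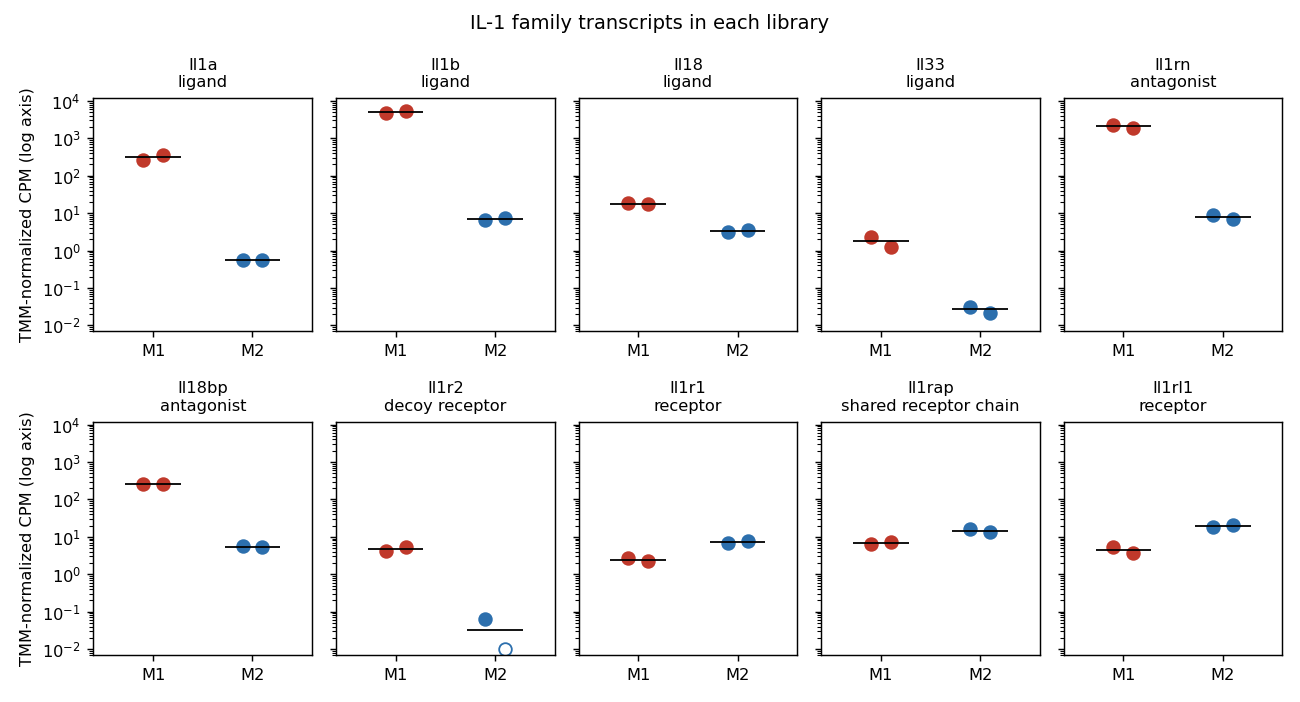
TMM-normalized CPM on a log axis (vertical) in each of the 2 M1 and 2 M2 libraries for the 10 IL-1 family genes; points are libraries and lines are group means. Ligands, antagonists and the decoy Il1r2 lie higher in M1, Il1r1, Il1rap and Il1rl1 lie lower in M1, and the open circle for Il1r2 marks an M2 library with no count, drawn at the bottom of the axis.

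The IL-1 ligands had the largest changes. Il1b (chromosome 2, 129364570 to 129371139, minus strand, GRCm38), the precursor of the main secreted IL-1, had 4725 and 5245 CPM in the M1 libraries and 6.74 and 7.25 CPM in the M2 libraries. It was 709.8-fold higher in M1 (log2 fold change 9.47, SE 0.12, edgeR adjusted p = 1.46e-17). The groups lay far apart and the libraries within each were close. Il1b took 0.400% and 0.454% of all counts in the M1 libraries. Per kilobase of exon it ranked 13 among 14631 tested genes in M1 and 7117 in M2.

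Il1a (chromosome 2, 129299610 to 129309972, minus strand), whose product is active without caspase-1 cleavage, had 268 and 363 CPM in M1 and 0.575 and 0.543 CPM in M2. It was 564-fold higher in M1 (log2 fold change 9.14, SE 0.26, edgeR adjusted p = 6.01e-07). The M1 libraries were unequal, with replicate 2 the higher by 0.44 log2 units, a small gap beside the distance to M2. In M2 the gene had 18 and 25 counts, so its fold rests on few reads there. Il1a and Il1b lie side by side on chromosome 2 in the same orientation. Each overlaps an antisense gene, Gm14023 over 222 exonic bases of Il1a and Il1bos over 25 of Il1b, and the kit does not mark strand. Those partners had at most 75 and 21 counts in any library. In M2, however, Gm14023 had 15 and 11 counts, not far below the 18 and 25 of Il1a. The part of the overlap in the Il1a counts was not tested.

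Il18 (chromosome 9, 50554827 to 50581840, plus strand), the interferon gamma-inducing member of the family, changed far less than Il1a or Il1b. It had 18.9 and 17.2 CPM in M1 and 3.16 and 3.63 CPM in M2. It was 5.27-fold higher in M1 (log2 fold change 2.40, SE 0.12, edgeR adjusted p = 3.94e-11), with no overlap between the groups. Its transcript was present in M2 at a level per kilobase close to that of Il1b, at 3.07 and 3.52 CPM per kilobase against 3.53 and 3.80 for Il1b. With the longest protein-coding transcript as the length the levels in M2 were further apart, at 3.57 and 4.10 for Il18 and 4.97 and 5.35 for Il1b.

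Il33 (chromosome 19, 29925114 to 29960718, plus strand) was near the limit of detection. It had 67 and 30 counts in the M1 libraries and 1 count in each M2 library, which is 2.30 and 1.22 CPM in M1 and 0.0319 and 0.0217 CPM in M2. The pooled ratio of M1 over M2 was 69.9, with an exact 95% interval of 18.8 to 585 that covers counting error only (edgeR adjusted p = 4.26e-07). The M1 libraries differed by -0.91 log2 units (replicate 2 minus replicate 1), the widest gap between M1 replicates among the 10 genes. Per kilobase of exon, Il33 stood below Il1a, Il1b and Il18 in both groups.

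**Figure D2:**
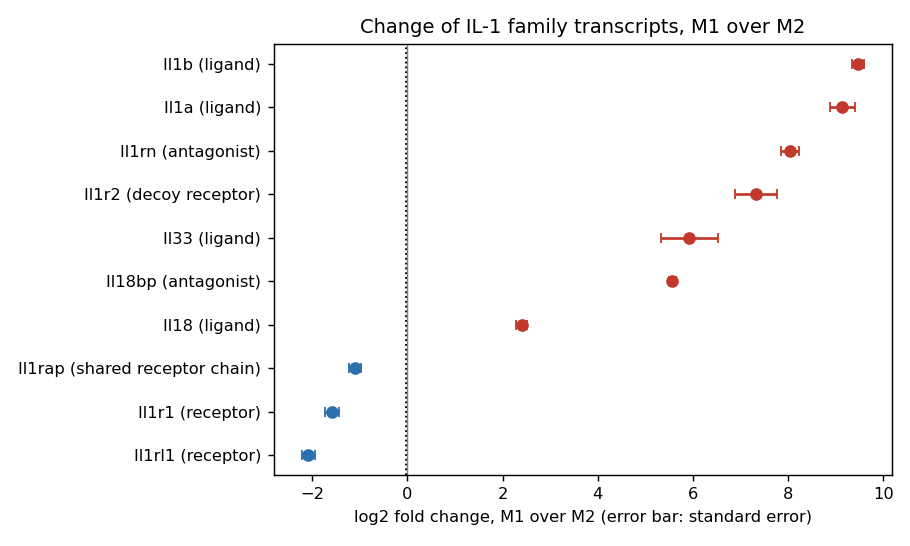
Log2 fold change, M1 over M2 (horizontal axis), with its standard error as the bar, for the 10 IL-1 family genes from edgeR; the dotted line is the median of all 14656 genes tested. Il1b, Il1a and Il1rn lie beyond 8 log2 units, Il1rap, Il1r1 and Il1rl1 lie below 0, and the values of Il1r2 and Il33 rest on 2 counts in M2.

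The antagonists were higher in M1 together with their ligands. Il1rn (chromosome 2, 24336853 to 24351494, plus strand), the IL-1 receptor antagonist, had 2335 and 1838 CPM in M1 and 9.0 and 6.99 CPM in M2. It was 264-fold higher in M1 (log2 fold change 8.04, SE 0.18, edgeR adjusted p = 1.07e-09). Replicate 2 minus replicate 1 was -0.34 log2 units in M1 and -0.37 in M2. Replicates are numbered in accession order, and the labels do not say whether libraries of the groups are paired. Counts per gene do not separate the secreted form from the intracellular forms.

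Il18bp (chromosome 7, 102014885 to 102018690, minus strand), the soluble inhibitor of IL-18, had 264 and 251 CPM in M1 and 5.59 and 5.28 CPM in M2. It was 47.5-fold higher in M1 (log2 fold change 5.57, SE 0.081, edgeR adjusted p = 3.35e-17), with the smallest standard error of the 10. Its change was thus larger than that of the cytokine it binds; the difference between these changes was not tested. It shares 80 exonic bases with Numa1 on the other strand, which had 4450 and 3604 counts in M1 and 4884 and 6885 in M2.

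Il1r2 (chromosome 1, 40074079 to 40125231, plus strand), the decoy receptor for IL-1, had 4.29 and 5.21 CPM in M1 and 0.0638 and 0 CPM in M2. These are 125 and 128 counts in M1 and 2 and 0 counts in M2. The pooled ratio of M1 over M2 was 182, with an exact 95% interval of 49.9 to 1513 for counting error only (edgeR adjusted p = 7.60e-10). The gene was therefore close to undetected in M2, and the size of the ratio is loosely set. The fitted log2 fold change of 7.32 was 10.29 without M2 replicate 1 and 6.10 without M2 replicate 2. Neutrophils also express this gene, and the 9 neutrophil markers summed to 9.51 and 10.7 CPM in M1 and 11.8 and 15.6 CPM in M2. Of the 6 that were tested, S100a8 was called higher in M1, at 7.89 and 8.79 CPM in M1 and 1.98 and 3.28 CPM in M2. S100a9, at 0.721 and 0.447 CPM in M1 and 3.74 and 4.71 CPM in M2, Ltf, Ngp and Mpo were called lower, and Camp was not called. The part of neutrophils in the Il1r2 level was not tested. Ly6g had 0 and 3 counts in M1 and 1 and 0 in M2.

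Inhibitor and ligand were set against each other as ratios of counts per kilobase of exon. No test was run on the ratios; an exact permutation test of 2 libraries against 2 allows no two-sided p below 0.333. The ratio of Il1rn to Il1a plus Il1b was 0.161 and 0.113 in M1 and 0.425 and 0.310 in M2. Transcripts of the antagonist were thus fewer per IL-1 transcript in M1, although Il1rn itself was higher there. The ratio of Il18bp to Il18 went the other way, at 4.76 and 4.96 in M1 and 0.602 and 0.496 in M2. The ratio of the decoy Il1r2 to the signalling receptor Il1r1 was 5.41 and 7.76 in M1 and 0.0312 and 0 in M2. In none of the 3 ratios did the groups overlap. The direction between groups does not depend on gene length where a single gene stands on each side, but the level does. With the longest protein-coding transcript as the length, which shortens Il1rn from 5.535 to 2.474 kilobases, the Il1rn ratio averaged 0.222 in M1 and 0.597 in M2.

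**Figure D3:**
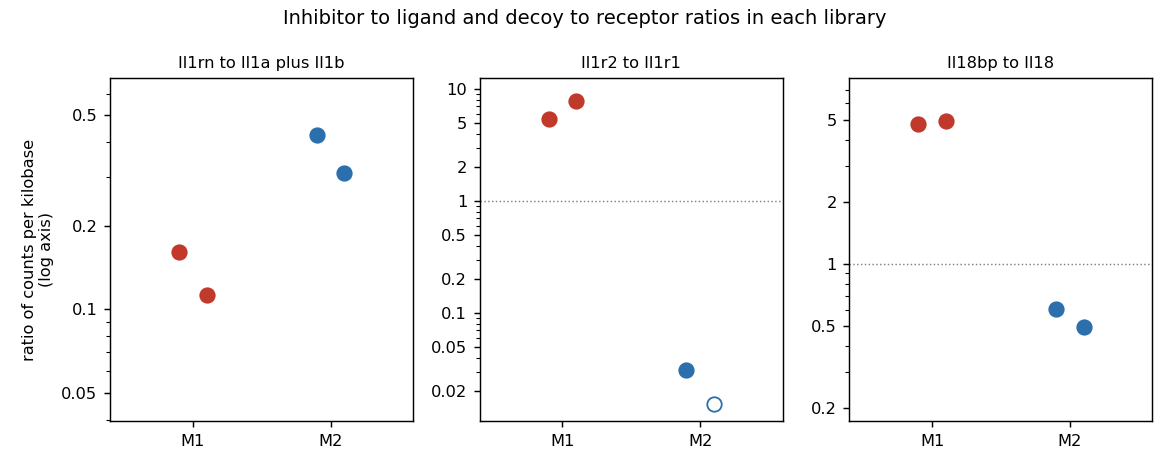
Ratios of counts per kilobase of exon on log axes (vertical) in each M1 and M2 library; the dotted line marks a ratio of 1 and lies above the axis range in the left panel. Il1rn to Il1a plus Il1b was lower in M1, Il18bp to Il18 and Il1r2 to Il1r1 were higher in M1, and the open circle marks the M2 library with no Il1r2 count, drawn at the bottom.

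The signalling receptors were lower in M1. Il1rl1 (chromosome 1, 40429570 to 40465415, plus strand), which encodes the IL-33 receptor ST2, had 5.35 and 3.74 CPM in M1 and 18.0 and 20.8 CPM in M2. It was 4.24-fold higher in M2 (log2 fold change of M1 over M2 -2.08, SE 0.14, edgeR adjusted p = 2.29e-08). The groups did not overlap. Membrane-bound and soluble ST2 come from this gene by different starts and 3' ends and are not separated in counts per gene.

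Il1r1 (chromosome 1, 40225080 to 40317257, plus strand), the receptor through which both forms of IL-1 signal, had 2.64 and 2.24 CPM in M1 and 6.83 and 7.90 CPM in M2. It was 3.02-fold higher in M2 (log2 fold change of M1 over M2 -1.59, SE 0.15, edgeR adjusted p = 1.72e-07). Its level was low in both groups, with 77 and 55 counts in M1 and 214 and 364 in M2. Il1rap (chromosome 16, 26581704 to 26730117, plus strand), the chain shared by the IL-1, IL-33 and IL-36 receptors, had 6.49 and 7.16 CPM in M1 and 16.3 and 13.1 CPM in M2. It was 2.14-fold higher in M2 (log2 fold change of M1 over M2 -1.10, SE 0.13, edgeR adjusted p = 1.69e-06). All 3 receptor chains thus differed in the same direction and by less than 5-fold. Il1rap overlaps the antisense gene Gm20319, which had 0 counts in both M1 libraries and 1 in each M2 library.

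Stromal cells and mast cells also carry ST2 and IL1R1, and their markers were read beside these receptors. The 8 fibroblast and stromal markers all had counts and summed to 125 and 116 CPM in M1 and 1148 and 1172 CPM in M2. Collagens made up most of the sum, with Col1a1 at 40.7 and 38.2 CPM in M1 and 551 and 557 CPM in M2 and Col1a2 at 52.9 and 53.0 CPM in M1 and 469 and 486 CPM in M2. Of the 8, 5 were lower and 2 higher in M1. Dcn, a proteoglycan gene of fibroblasts, was called higher in M1, at 17.5 and 12.5 CPM in M1 and 6.10 and 7.66 CPM in M2, and so was Lum, whose call was lost under total-count scaling. The part of stromal cells in the receptor levels was not tested. The mast cell and basophil markers Ms4a2 and Prss34 had 0 counts in all 4 libraries and Fcer1a had 1 count in all. The summed level of that list was 75.7 and 71.7 CPM in M1 and 1.44 and 1.48 CPM in M2. Of its 4 tested genes 2 were called higher in M1, Hdc, at 68.1 and 64.7 CPM in M1 and 0.223 and 0.0434 CPM in M2, and Kit, at 7.17 and 6.59 CPM in M1 and 0.223 and 0.304 CPM in M2. Mcpt8 stayed under 1 CPM in every library and was called lower in M1, a call that was lost without M2 replicate 2 (log2 fold change -1.74, edgeR adjusted p = 0.0913), and Gata2 was not called. Dendritic cell markers summed to 456 and 478 CPM in M1 and 4.53 and 3.71 CPM in M2. Of 5 tested, 4 were called higher in M1, among them Ccr7, at 423 and 443 CPM in M1 and 1.88 and 1.39 CPM in M2. Zbtb46 was called lower, at 0.858 and 0.935 CPM in M1 and 2.20 and 1.41 CPM in M2, a call that was lost without M2 replicate 1 (log2 fold change -0.67, edgeR adjusted p = 0.0761). Lymphoid markers summed to 35.8 and 33.6 CPM in M1 and 198 and 213 CPM in M2, most of it Il7r at 34.3 and 31.8 CPM in M1 and 197 and 212 CPM in M2, and of 3 tested 1 was higher, 1 lower and 1 not called in M1. The part of these cells in the ligand and receptor levels was not tested.

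The order of levels per kilobase differed between the groups. In M1, Il1b stood highest at 2478 and 2750.4 CPM per kilobase, followed by Il1rn at 422 and 332, Il1a at 136 and 184, and Il18bp at 87.2 and 82.8. Il18 followed at 18.3 and 16.7 CPM per kilobase and Il1r2 at 2.25 and 2.73. None of these neighbours overlapped. Below them Il1rl1, Il33, Il1rap and Il1r1 lay between 0.352 and 0.797 CPM per kilobase, and Il1rl1, Il33 and Il1rap overlapped one another. With the longest protein-coding transcript as the length, Il1rap stood at 1.44 and 1.58 CPM per kilobase in M1, above Il1rl1 at 1.01 and 0.706 and Il33 at 0.904 and 0.480.

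In M2, Il1a, Il1r2 and Il33 lay well below the other genes, which lay between 1.07 and 3.80 CPM per kilobase. Il1b, at 3.53 and 3.80 CPM per kilobase, Il18, at 3.07 and 3.52, and Il1rl1, at 2.61 and 3.02, stood highest, in this order and without overlap. Il18bp at 1.85 and 1.74, Il1rn at 1.63 and 1.26, Il1rap at 1.43 and 1.15 and Il1r1 at 1.07 and 1.24 CPM per kilobase followed, and the last 3 overlapped in part. Il1a lay at 0.291 and 0.275 CPM per kilobase, and Il1r2 and Il33 were below 0.04 CPM per kilobase in both M2 libraries. With the longest protein-coding transcript as the length, Il1rn moved up to 3.64 and 2.83 and Il1rap to 3.6 and 2.89 CPM per kilobase in M2, and Il18, at 3.57 and 4.10, and Il1rl1, at 3.40 and 3.93, overlapped. The order of the genes between Il1b and Il1a in M2, and the order at the low end of M1, thus rest on the choice of length.

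The genes with the most similar profile over the 4 libraries were found by Euclidean distance between centred log2 CPM values. These values used a prior count of 2, which draws in the changes of genes with few counts. For Il1b they were the chemokine Cxcl9 (distance 0.0838), the itaconate-producing enzyme Acod1 (0.20) and the cytokine Il6 (0.228). For Il1rn they were Ms4a6b (0.18), the guanylate-binding protein Gbp2 (0.202) and the interferon regulatory factor Irf7 (0.214). For Il1rl1 they were 2810414N06Rik (0.0829), Rab44 (0.105) and the chemokine Ccl24 (0.135), all lower in M1. Their fitted log2 fold changes were -2.38, -2.46 and -2.44, against -2.08 for Il1rl1. With 4 libraries in 2 groups these distances reflect little beyond the size of the difference on that scale and the gap between replicates.

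Of the other IL-1 family ligands and receptors, 11 genes were found in the table, 5 of them had no count in any library (Il1f5, Il1f8, Il1f10, Il1rapl1 and Il1rapl2), and 5 were tested. Of those 5, 3 were called higher and 1 lower in M1, beside 37.5% and 39.7% of all tested genes. Il1f9, which encodes IL-36 gamma, had 15.7 and 15.5 CPM in M1 and 0.223 and 0.304 CPM in M2, a 56.7-fold difference (log2 fold change 5.83, SE 0.18, edgeR adjusted p = 1.89e-13). Il1f6, which encodes IL-36 alpha, had 2.20 and 2.16 CPM in M1 and 2 counts in M2, with a pooled ratio of 84.3 and an exact 95% counting interval of 22.8 to 704. Both ligands were thus higher in M1.

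Il1rl2, the IL-36 receptor, had 0.412 and 0.732 CPM in M1 and 11.8 and 10.7 CPM in M2, and was lower in M1 (log2 fold change -4.32, SE 0.20, edgeR adjusted p = 2.46e-11). The IL-36 genes therefore divided between ligands and receptor in the same directions as the IL-1 genes. Sigirr, an inhibitory receptor of the family, stayed under 1 CPM in every library and was called higher in M1 (log2 fold change 1.16, SE 0.36, edgeR adjusted p = 0.00930), a call that was lost under total-count scaling, with DESeq2 and without M1 replicate 2 (adjusted p = 0.0843, 0.0858 and 0.0694); the gene was not tested under the filter of 1 CPM. Il18rap, the accessory chain of the IL-18 receptor, had 1.92 and 1.26 CPM in M1 and 1.02 and 1.15 CPM in M2 and was not called, though without M1 replicate 2 it was (log2 fold change 0.81, edgeR adjusted p = 0.0101). Il18r1 was too low to test, with 4 and 10 counts in M1 and 7 in each M2 library. Il1r2, Il1r1, Il1rl2, Il1rl1, Il18r1 and Il18rap lie in this order on the plus strand of chromosome 1, so the decoy that was higher in M1 has the receptors that were lower in M1 as its neighbours.

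Signalling genes downstream of the receptor were mixed. Of 14 tested, 9 were higher, 4 lower and 1 not called in M1, with a median log2 fold change of 0.70. Among all tested genes 77.2% were called, 37.5% as higher and 39.7% as lower in M1. Irak3, an inhibitory kinase-like protein that restrains MyD88 signalling, was 13.2-fold higher in M1, at 174 and 179 CPM in M1 and 14.5 and 12.5 CPM in M2 (edgeR adjusted p = 1.56e-15). The kinase Irak2 was 9.94-fold and the ubiquitin ligase Peli1 7.97-fold higher in M1. Peli2, a close relative of Peli1, went the other way, with 0.858 and 1.02 CPM in M1 and 19.5 and 20.4 CPM in M2, 21.3-fold higher in M2 (edgeR adjusted p = 3.55e-13). Tab1 and Irak1 were lower in M1 by smaller margins, 1.56-fold and 1.33-fold. Map3k7, called higher in M1 at a log2 fold change of 0.26, was called lower under total-count scaling, at -0.19, and not called under upper-quartile scaling. Irak4, called lower in M1 at a log2 fold change of -0.17, was not called under RLE scaling, with DESeq2, or without either of the M2 replicates (adjusted p from 0.0530 to 0.191). Tollip, the gene not called, was called lower under upper-quartile scaling, at -0.26, and total-count scaling, at -0.52. Under total-count scaling 8 genes of this list were called higher and 6 lower in M1.

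Genes for processing and release of the ligands were mixed as well. Of 17 tested, 10 were higher, 4 lower and 3 not called in M1, with a median log2 fold change of 0.76. Among all tested genes 77.2% were called in either direction. Nlrp3, the inflammasome sensor, was 97.4-fold higher in M1, at 770.2 and 793 CPM in M1 and 8.08 and 7.97 CPM in M2 (edgeR adjusted p = 1.48e-17). Casp4, the sensor of cytosolic LPS, was 15.2-fold and Mefv, which encodes pyrin, 14.7-fold higher in M1. Casp1, which cleaves the IL-1 beta and IL-18 precursors, was 3.82-fold higher, at 413 and 372 CPM in M1 and 101 and 104 CPM in M2, and the pore-forming Gsdmd was 2.32-fold higher.

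The inflammasome adaptor and the ATP receptor were lower in M1. Pycard, which encodes the adaptor ASC, had 12.9 and 12.6 CPM in M1 and 42.6 and 43.2 CPM in M2 and was 3.37-fold higher in M2 (edgeR adjusted p = 1.04e-11). P2rx7, the ATP-gated channel that triggers IL-1 beta release, had 10.3 and 8.22 CPM in M1 and 75.2 and 72.0 CPM in M2 and was 7.88-fold higher in M2 (edgeR adjusted p = 4.11e-13). Txnip was 2.96-fold higher in M2. Under total-count scaling the number lower in M1 was 7 in place of 4, and Capn2, a calpain called higher in M1 at a log2 fold change of 0.38, had -0.07 and was not called.

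All 16 IL-1 and NF-kappaB response genes were called higher in M1, with a median log2 fold change of 5.74. Among all tested genes 37.5% were called higher in M1. LPS is itself known to induce these genes, so they are no readout of IL-1 alone. Il6 had 3596 and 4135 CPM in M1 and 5.11 and 4.65 CPM in M2, a 797-fold difference (edgeR adjusted p = 1.48e-17). Csf3, the granulocyte growth factor gene, was 711-fold and the acute-phase gene Saa3 626-fold higher in M1. The fold of Csf3 rests on 8 and 10 counts in M2 (log2 fold change 9.47, SE 0.52, edgeR adjusted p = 0.000656). The M1 libraries differed in Csf3, at 133 and 204 CPM, with replicate 2 the higher, as in Il1a.

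**Figure D4:**
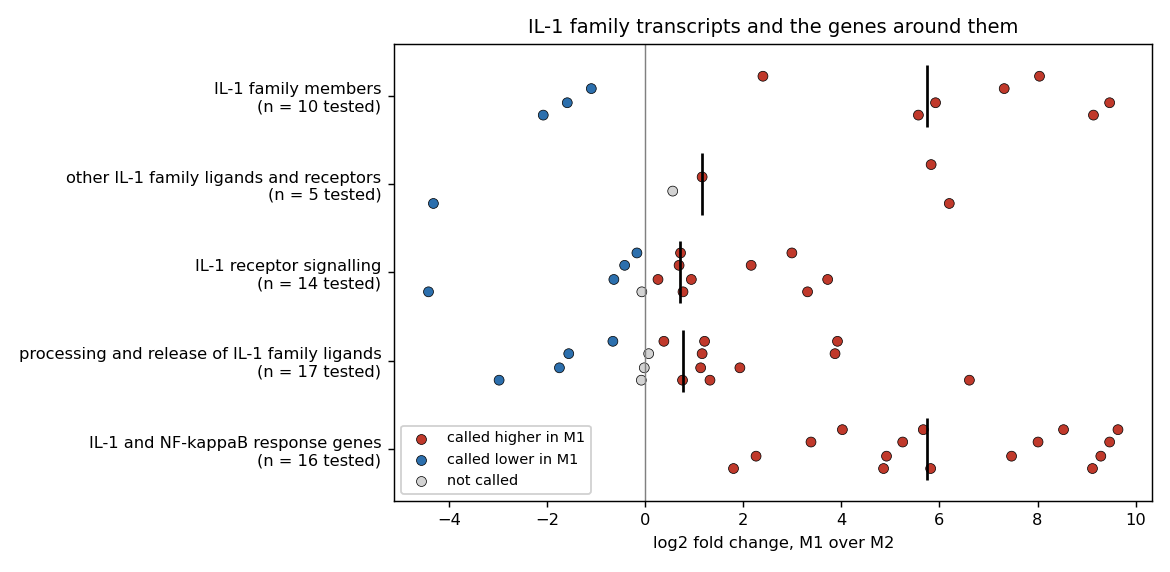
Log2 fold change, M1 over M2 (horizontal axis), of each tested gene in 5 lists (rows); points are genes, colours give the call by edgeR at an adjusted p under 0.05, and black bars are medians. The response genes all lie above 0, and the IL-1 family genes split into 7 above and 3 below.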

How the data were processed

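Per the labels' protocols, poly(A)-selected RNA was made into libraries with the NEBNext Ultra RNA kit, which by its design keeps no strand, and read as pairs of 150 bases. The submitters' processing notes name the build GRCm38 and, without roles or settings, STAR 2.5.2b, Trimmomatic 0.36, Subread 1.5.2, featureCounts, DESeq and DESeq2. The authors deposited whole-number read counts per Ensembl gene, not normalized. Their comparison table was not used, because its printed symbols are shifted in part.

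Gene IDs were matched to GENCODE vM21 (49056 of 49315; the 259 without a symbol stayed in the fit). Counts were fitted with edgeR 4.0.16 (R 4.3.3): filterByExpr (minimum count 10, minimum total 15), TMM, robust quasi-likelihood F test, two-sided, Benjamini-Hochberg adjustment over the 14656 tested genes, called under 0.05. SE is the size of the log2 fold change over the root of F. Length is the union of exons. The fit was tested on simulated data. Genes, lists and tests were chosen with earlier results of these data known, and no p was adjusted over a list alone. Beyond the 10 genes, those named are the 3 called with the largest change each way per list at 1 CPM or more, every called gene of a list with 6 or fewer measured, the most abundant marker of each cell type, markers at 0, and the 3 nearest profiles of Il1b, Il1rn and Il1rl1. Casp1, Gsdmd, Map3k7, Irak4, Capn2, Il18rap, Il18r1, Lyz2, Csf1r, Cd68, Dcn, Lum, Col1a2, Fcer1a, Kit, Mcpt8, Gata2, Zbtb46, Ly6g, S100a9, Ltf, Ngp, Mpo, Camp and the overlapping genes were named after their values were seen. Alternatives used DESeq2 1.42.0 and limma 3.58.1.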

Additional observations from a re-analysis of the deposited data

How the results depend on the processing

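All 10 IL-1 family genes kept their direction and their call in each of 12 alternatives: RLE, upper-quartile and total-count scaling, no filter, a filter of 1 CPM in 2 libraries, DESeq2, limma-voom, a non-robust fit, and each of the 4 libraries left out, where a lone library is assumed to vary like the others. Without 1 library, 7 were higher and 3 lower in M1 each time. Against TMM, total-count scaling shifted the log2 fold changes of the tested genes by a median of -0.45, and upper-quartile scaling by -0.18. Under total-count scaling 3342 genes were called higher in M1 in place of 5495, 28.1% of calls in place of 48.6%. With it, 7 in place of 4 processing and release genes were lower. Gene length set the ratios. As plain counts they averaged 0.398 in M1 and 1.06 in M2 for Il1rn to Il1a plus Il1b, 1.98 in M1 for Il1r2 to Il1r1, and 14.3 in M1 and 1.61 in M2 for Il18bp to Il18. With the longest protein-coding transcript, chosen after seeing the data, the Il1rn ratio averaged 0.222 in M1 and 0.597 in M2. Depth limits Il1r2, Il33 and Il1f6, each with 2 counts in M2. No paired analysis was possible because the labels give no replicate numbers.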
